A study of Mus musculus with 168 samples.

Results

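The cerebral cortex of mice killed directly after 3 hours of hypoxia was compared with the cerebral cortex of sham-treated control mice. The members were chosen by the sample labels alone, as the 3 cortex arrays of the 3-hour hypoxia group and the 3 cortex arrays of the 0-hour control group, which makes 6 arrays where the study has 24 from each of 7 brain regions. All 45037 probe sets other than the array's own controls were analysed on them, and these stand for 18193 genes with a probe set of their own. Endothelin-1, the hypoxia-induced brake Ddit4, the FOXO target Depp1 and several glucocorticoid-induced genes were among the 44 probe sets that rose. The splicing kinase Clk1, the RNA-binding genes Mex3b and Hnrnpdl and the transcription factor Klf6 were among the 61 that fell.

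The study measured how brain transcripts follow a hypoxic exposure that later protects the brain, a procedure called preconditioning. Male C57BL/6 mice aged 8 to 9 weeks breathed 8% oxygen for 1 or 3 hours and were killed at once (groups H1 and H3), or breathed it for 3 hours and then room air for 1, 3, 6, 12 or 24 hours (R1, R3, R6, R12 and R24). Sham-treated controls were kept in room air in such chambers for 3 hours, followed by a day (24 hours) in the home cage. Each of the 8 groups held 3 mice, and 7 brain regions of the 24 mice were each measured on 1 Affymetrix Mouse Genome 430 2.0 array. The control mice had left the chamber a day before they were killed and the H3 mice had only just left it. Hypoxia and recent handling therefore cannot be told apart in the comparison of H3 with control. The hour of day at which the mice were killed is not stated, and its part was not tested. Values below are signal intensities as deposited, given for replicates 1, 2 and 3 of a group in that order, and changes are differences of log2(intensity + 16) with their standard error (SE). The offset of 16 shrinks the change of dim probe sets.

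Cells sense falling oxygen chiefly through the hypoxia-inducible factors (HIF), which escape degradation when oxygen is low and switch on genes for blood vessel growth, blood flow, glycolysis and restraint of cell growth. In brain, oxygen shortage also lowers energy supply and activates stress hormones, and the glucocorticoid receptor and the FOXO factors then act on overlapping targets. RNA processing responds too, since splicing kinases and RNA-binding proteins change with temperature, energy and stress.

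The 6 arrays were alike in overall signal. Their median intensities lay between 42.0 and 48.3, 24.4 to 27.7% of the values of an array were below 16, and the correlation of log2 values between any pair of arrays was between 0.9753 and 0.9824. Markers of cortical excitatory neurons had signal on all 6 arrays, but their levels were not compared with those of other regions. The forebrain transcription factor Tbr1 had 537, 445 and 443 on the control arrays and 483, 440.0 and 426 on the H3 arrays. The 10 measured markers of this list summed to 7499.6 to 8749.7 in control and to 7757 to 8939.7 at H3. Choroid plexus transcripts did vary between arrays, as described further on.

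At H3, 105 of 45037 probe sets (0.233%) differed from control at an adjusted p under 0.05 in limma's moderated test with Benjamini-Hochberg adjustment. Of these, 44 (0.0977% of all) were higher and 61 (0.135%) were lower, and 41 and 39 of them changed at least 1.5-fold. All 105 had the 3 H3 arrays on one side of the 3 control arrays, which was so for 4644 of all probe sets (10.3%). The median log2 change over all probe sets was -0.00575. The higher calls named 28 genes and the lower calls 49 genes, and 22 called probe sets had no gene symbol. A gene with several probe sets is represented below by the one that was brightest on average over the arrays of all regions. At that level 46 of all 18193 genes (0.253%) were called, 17 higher and 29 lower. The gene lists below were chosen with earlier results of these data known. The largest rise was 2.96 (Depp1) and the largest fall -1.28 (Oaz2) on the log2 scale.

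**Figure D1:**
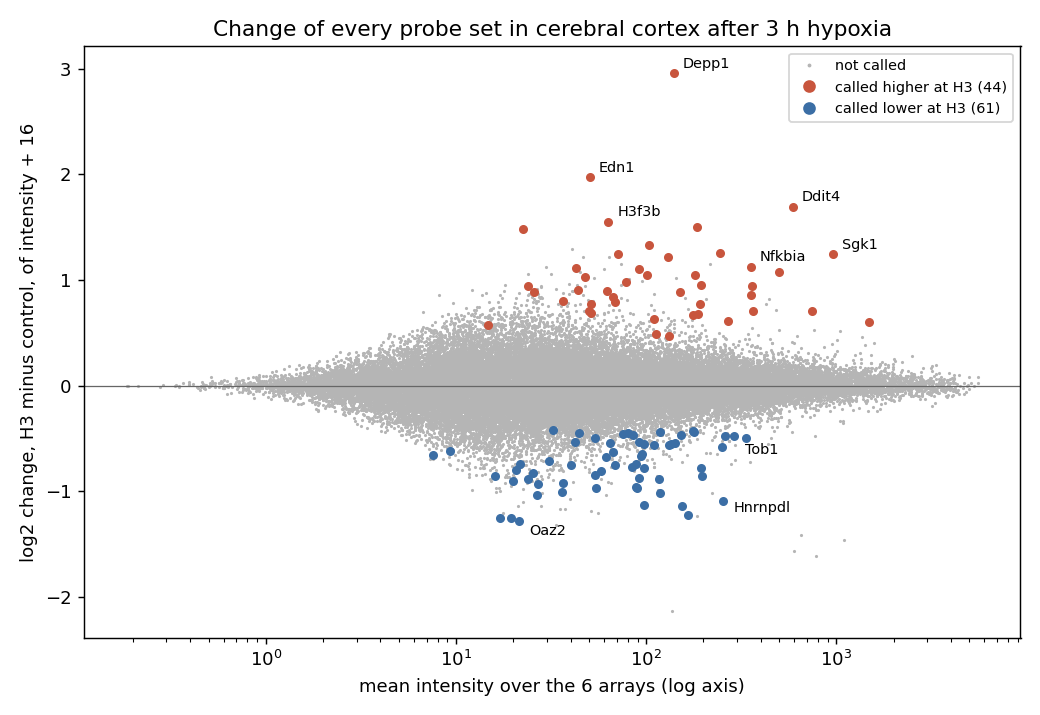
Log2 change of intensity + 16 at H3 minus control (vertical axis) against the mean intensity of the 6 cortex arrays (log axis) for each of the 45037 probe sets. The 44 probe sets called higher reach 2.96 (Depp1) and the 61 called lower reach -1.28 (Oaz2), and grey points are probe sets not called.

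The counts depend on single arrays. The higher calls numbered 26 without control array 3, 26 without H3 array 2 and 22 without H3 array 3, and the lower calls 29 without control array 1, 27 without control array 2, 37 without H3 array 1, 33 without H3 array 2 and 36 without H3 array 3. Of the calls, 16 higher and 16 lower ones were made in all 6 of these repeats. With the arrays centred on their medians 30 were higher and 24 lower, so the balance between rises and falls turned with the scaling. No called change altered its sign in any alternative setting. Fewer arrays or another offset could not alter a sign, since control and H3 arrays did not overlap at any called probe set. The spread behind the test came from all 24 cortex arrays. With the 6 arrays alone, 3 higher and 0 lower calls passed, out of 3173 probe sets at an unadjusted p under 0.05 in the fit of 24 arrays.

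The first group of rises holds genes that act on vessels, among them Edn1, Adm and Vegfa, which are on the list of HIF targets. HIF activity itself was not measured. Edn1 encodes endothelin-1, a peptide that constricts vessels, and it had 11.4, 9.10 and 12.4 on the control arrays and 84.5, 87.7 and 97.8 on the H3 arrays. Every H3 array was far above every control array, and the controls were below the offset of 16 (log2 change 1.97, SE 0.27, adjusted p = 0.00169). Adm encodes adrenomedullin, a peptide that widens vessels. Its called probe set had 20.3, 30.4 and 27.0 in control and 59.7, 84.4 and 64.8 at H3 (log2 change 1.03, SE 0.19, adjusted p = 0.028). The groups did not overlap, but the call was lost without any 1 of the arrays other than H3 array 1, with adjusted p of 0.0589 to 0.141. Its brighter probe set had 39.9, 18.8 and 38.9 in control and 107, 81.3 and 72.7 at H3, with a change of 1.11 and an adjusted p of 0.408.

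Vegfa, the growth factor that directs new vessels, had 139, 160.1 and 114 in control and 209.8, 272 and 257 at H3. The lowest H3 array stood above the highest control array (log2 change 0.78, SE 0.15, adjusted p = 0.0405), and the call was lost without any 1 of the arrays other than control array 2 and H3 array 1, with adjusted p of 0.114 to 0.18. Apold1, an early gene of endothelial cells, had 72.7, 68.5 and 73.2 in control and 172, 204 and 187 at H3. Its 3 control arrays lay close together and all H3 arrays were at 172 or more (log2 change 1.22, SE 0.14, adjusted p = 0.000434). Of 24 measured genes of vasoactive and angiogenic signalling, these 3 (Edn1, Vegfa and Apold1) were called higher at their representative probe set and none lower. The list median was 0.05, and 0.253% of all genes were called at that level. The receptors and partners on the list were not called: Aplnr, the apelin receptor, had a change of -0.37, and Nrp1, a VEGF co-receptor, had -0.24 (adjusted p = 0.789 and 0.832). The 13 endothelial markers had a median change of -0.02 and none was called, and their summed intensity was 1479.7 to 1492 in control and 1348 to 1537 at H3.

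Ddit4, also called REDD1, is a HIF, FOXO and glucocorticoid target that restrains the growth kinase mTOR. It had 217, 312 and 284 on the control arrays and 791, 1029 and 899 on the H3 arrays, groups far apart (log2 change 1.69, SE 0.16, adjusted p = 5.19e-05). Its lowest H3 array was at 791 and its highest control array at 312, and the call held without any single array. Among the 11 measured brakes of mTOR it was the only call, beside 0.253% of all genes called in either direction. Sesn2, a sestrin induced by stress, had 16.5, 25.6 and 49.98 in control and 59.2, 48.1 and 45.3 at H3, with a change of 0.58 and an adjusted p of 0.597.

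Over the whole list of 30 measured HIF targets, 3 (Ddit4, Edn1 and Vegfa) were called higher and none lower, and Adm was called at a probe set that does not represent it. Of all 18193 genes at their representative probe set, 46 (0.253%) were called, 17 higher and 29 lower. The list's median change was 0.12 with 22 of 30 members above 0, where all genes had a median of -0.00695 and 47.9% above 0. Ankrd37, an ankyrin repeat gene, had 42.9, 49.0 and 44.6 in control and 59.4, 83.1 and 59.6 at H3 (0.43, adjusted p = 0.353), and Ndrg1 had 397, 361 and 378 in control and 454, 476 and 498 at H3 (0.32, adjusted p = 0.41). In both the H3 arrays were all above the control arrays without passing the test, and 10.3% of all probe sets did not overlap in either direction. The glucose transporter Slc2a1 had 0.14, lactate dehydrogenase Ldha 0.14, the pyruvate dehydrogenase kinase Pdk1 0.24 and the mitophagy gene Bnip3 0.04 on the log2 scale, none of them called.

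No metabolic enzyme on the lists was called. This covers 18 glycolysis genes, 35 respiratory chain subunits and 18 cholesterol synthesis genes, with median changes of 0.02, -0.02 and -0.00322. The respiratory chain subunits ran from -0.16 (Sdhd) to 0.16 (Ndufa10), and no subunit reached an unadjusted p under 0.05. Pgk1, a glycolytic HIF target, had 3909, 3296 and 3609.6 in control and 3955, 3387 and 3393 at H3. The 2 glycogen-targeting phosphatase subunits among the calls, chosen after their values were seen, were Ppp1r3c with 522, 696 and 473 in control and 743, 1108 and 928 at H3 (log2 change 0.70), and Ppp1r3g with 70.3, 94.4 and 83.6 in control and 129, 141 and 137 at H3 (0.63). The Ppp1r3c call was lost without any 1 of the arrays other than control array 2 and H3 array 1, with adjusted p of 0.116 to 0.153, and the Ppp1r3g call without any 1 of the 6 arrays, with adjusted p of 0.0549 to 0.226.

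**Figure D2:**
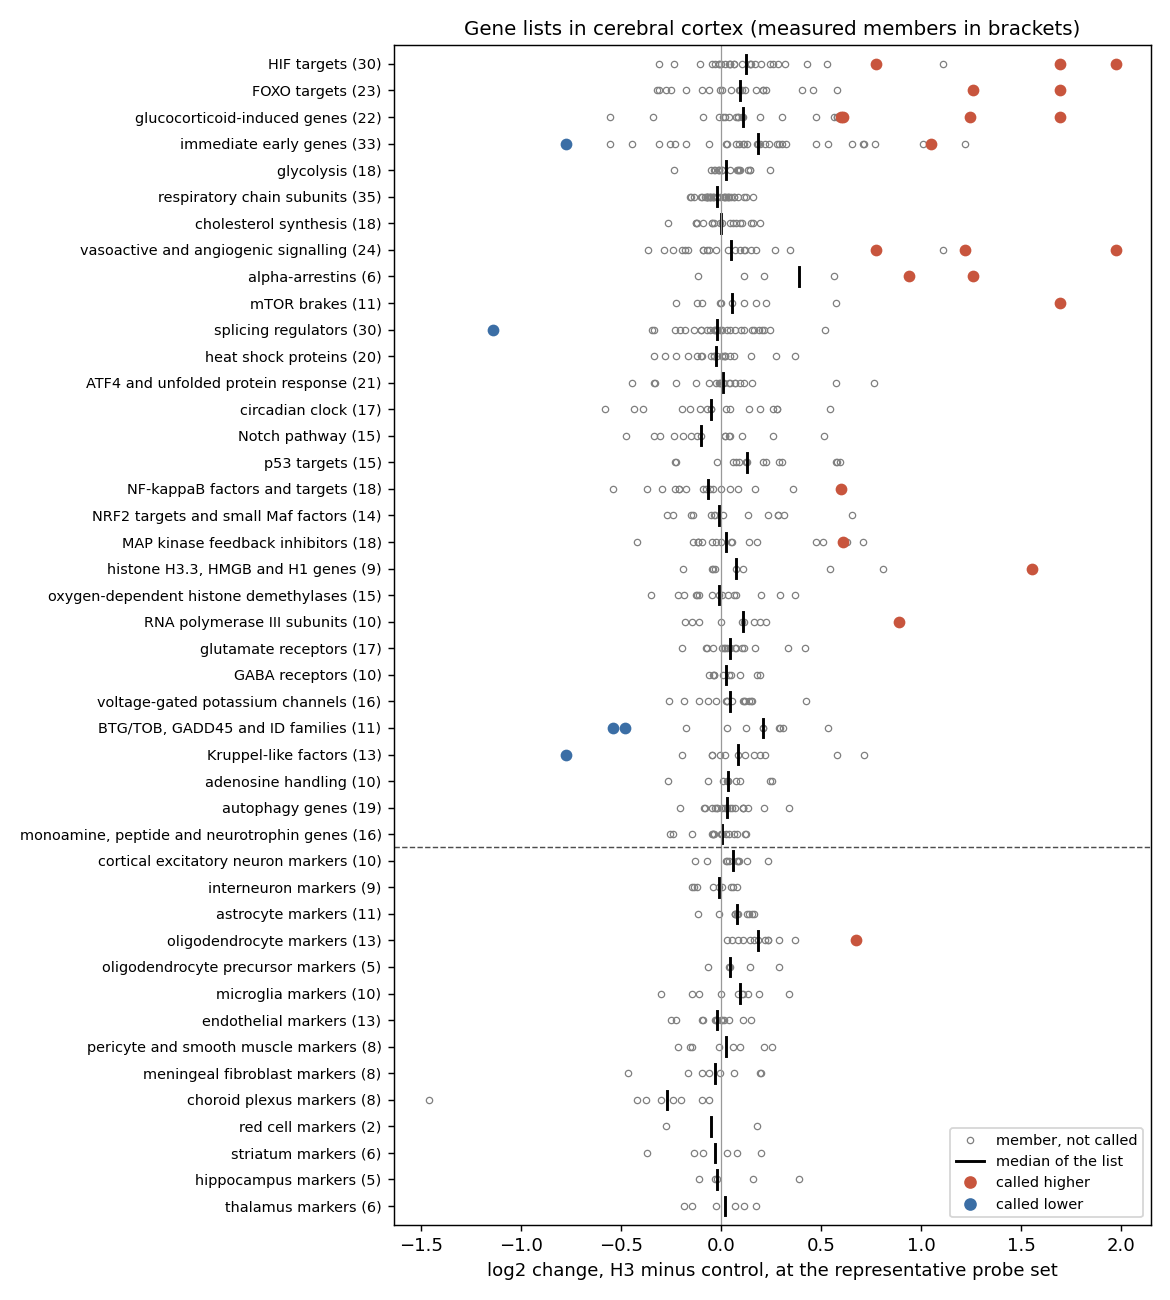
Log2 change at H3 minus control of each measured member of 44 gene lists at its representative probe set (open circles, not called; filled, called), with the list median as a bar. Pathway lists stand above the dashed line and marker lists below it, and 13 genes are called higher and 4 lower among 590.

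Genes known as FOXO targets or regulators of glucose uptake come next. Depp1, induced by FOXO factors and linked to autophagy, had 22.6, 14.6 and 21.9 on the control arrays and 262, 267 and 249.5 on the H3 arrays at the called probe set. All H3 arrays lay close together and far above the controls (log2 change 2.96, SE 0.30, adjusted p = 0.000101). Its brighter probe set had 139, 126 and 126 in control and 108, 168.4 and 338 at H3, where H3 array 1 was below the controls and H3 array 3 well above them, with a change of 0.46 and an adjusted p of 0.948. The Depp1 rise thus stands on 1 of its 2 probe sets.

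Txnip, an alpha-arrestin that limits glucose uptake and binds thioredoxin, had 143, 119 and 151 in control and 324, 394 and 334 at H3 (log2 change 1.26, SE 0.13, adjusted p = 0.000105). Its other probe set had 101, 69.4 and 97.4 in control and 292, 338 and 218 at H3 (log2 change 1.4999, SE 0.22, adjusted p = 0.00395), and both calls held without any single array. A relative, Arrdc3, which steers membrane receptors into endosomes, had 270.0, 232 and 219.8 in control and 451, 548 and 433 at H3 (log2 change 0.94, SE 0.10, adjusted p = 0.000105). The groups were apart for both genes. Of the 6 alpha-arrestins these 2 were called higher, beside 0.253% of all genes called in either direction, and the list median was 0.39. Among the others Arrdc2 had 0.56, Arrdc4 0.11 and Arrdc1 -0.12, none called. Of 23 FOXO targets, Ddit4 and Txnip were called at the representative probe set and none was lower, with a median of 0.10.

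Of the glucocorticoid-induced genes, 4 of 22 were higher and none lower at the representative probe set, with a median of 0.11 and 18 members above 0. Of all genes, 0.253% were called in either direction at that level and 47.9% had a change above 0. Sgk1, a kinase that the stress hormone and salt balance control, had 580.0, 447 and 669 in control and 1374, 1399.7 and 1255 at H3, so that its lowest H3 array was at 1255 and its highest control array at 669 (log2 change 1.24, SE 0.17, adjusted p = 0.00216). The Sgk1 call held without any single array. Nfkbia, the inhibitor that holds NF-kappaB in the cytoplasm, was called at 4 of its 5 probe sets. At the one with the largest change it had 193, 200.1 and 259 in control and 452, 484 and 534 at H3 (log2 change 1.12, SE 0.12, adjusted p = 0.00014), and at its brightest probe set 1254, 1032 and 1258 in control and 1867, 1734 and 1772 at H3 (log2 change 0.60, SE 0.10, adjusted p = 0.00991). The call at the brightest one was lost without control array 2 or H3 array 1, with adjusted p of 0.0513 to 0.0649, and the fifth probe set had a change of 0.52 and an adjusted p of 0.115.

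Errfi1, a feedback inhibitor of the EGF receptor, had 206, 225 and 194 in control and 360.3, 332 and 288 at H3 (log2 change 0.61, SE 0.09, adjusted p = 0.00551). The groups did not overlap and the call held without any single array. Ddit4 was the other member of the list that was called, and it also belongs to the HIF, FOXO and mTOR lists, so these counts share it. Cdkn1a, the cell cycle inhibitor p21, had 109, 167 and 182 in control and 159.9, 268 and 287 at H3, which overlapped (0.58, adjusted p = 0.692). Of 18 NF-kappaB factors and targets, Nfkbia alone was called and the median was -0.07. Errfi1 was the 1 call among 18 MAP kinase feedback inhibitors, which had a median of 0.02. Of all genes, 0.253% were called in either direction. Cebpd, a transcription factor of the acute phase response, had 25.0, 33.4 and 50.8 in control and 99.9, 111 and 108 at H3 (log2 change 1.25, SE 0.24, adjusted p = 0.0286), but its call was lost without any 1 of the arrays other than control array 3, with adjusted p of 0.0777 to 0.158. Its other probe set had 0.43 (adjusted p = 0.896).

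**Figure D3:**
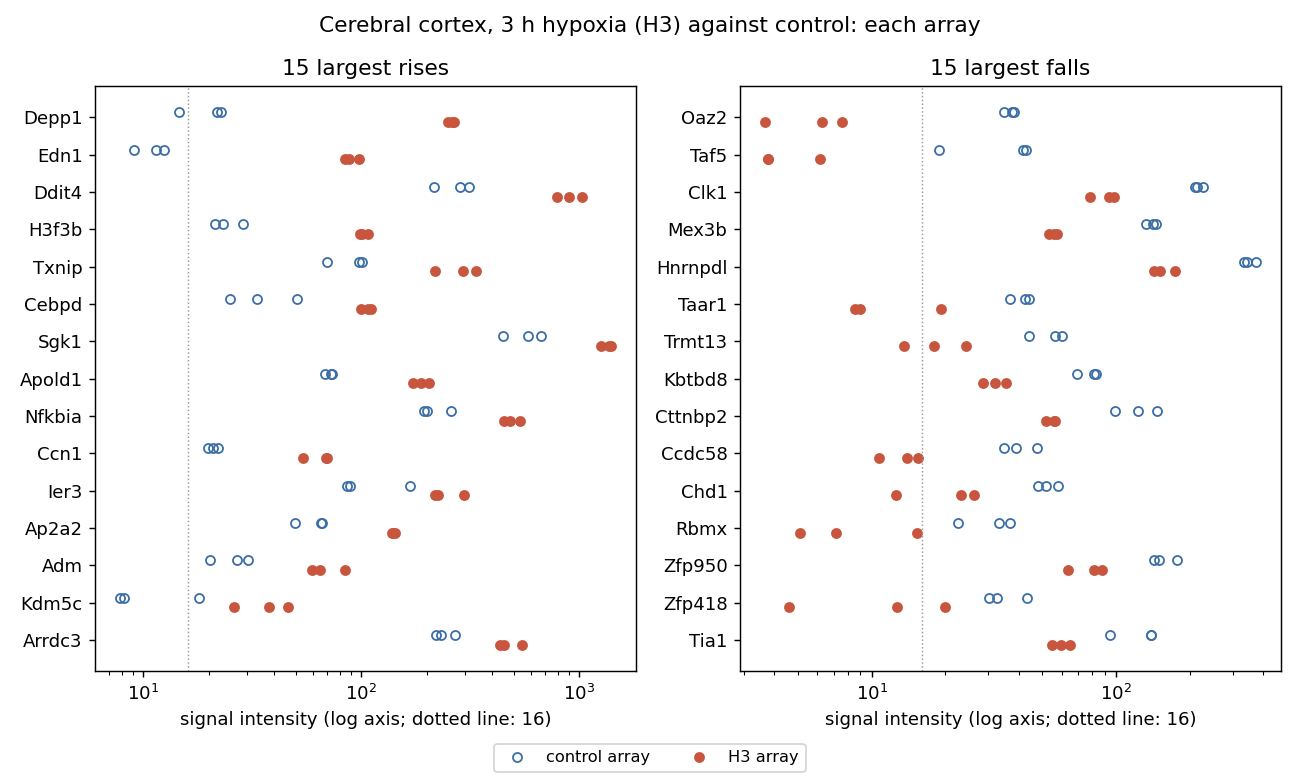
Signal intensity (log axis) of each of the 3 control arrays (open circles) and 3 H3 arrays (filled circles) for the 15 largest rises and 15 largest falls that name a gene, at the probe set with the larger change, with a dotted line at 16. In every gene shown the 2 groups of arrays do not overlap, and the H3 arrays of Oaz2, Taf5, Ccdc58 and Rbmx lie below the dotted line.

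Immediate early genes, which nerve cells and vessels switch on within minutes, were mixed. Of 33 measured, Ier3 was called higher and Klf6 lower at the representative probe set, and the median was 0.18 with 25 members above 0. Of all genes, 0.253% were called in either direction and 47.9% had a change above 0. Ier3, an early gene that protects from cell death, had 89.2, 168.2 and 86.5 in control and 295, 219 and 225 at H3 (log2 change 1.05, SE 0.21, adjusted p = 0.0353), and control array 2 was the nearest to the H3 arrays. Its call was lost without any 1 of the arrays other than control array 2, with adjusted p of 0.0727 to 0.188. Ccn1, a secreted matrix protein, had 19.8, 20.9 and 22.0 in control and 68.9, 54.3 and 69.6 at H3 at the called probe set (log2 change 1.12, SE 0.22, adjusted p = 0.0319) and 29.1, 33.7 and 30.4 in control and 125.5, 65.0 and 98.3 at H3 at its brightest (1.22, adjusted p = 0.108), and the call was lost without any 1 of the 6 arrays, with adjusted p of 0.0631 to 0.136.

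Control array 2 also carried high levels of activity-dependent genes. Fos had 243, 570.0 and 181 in control and 648, 423 and 492 at H3 (0.77, adjusted p = 0.731), and Dusp1, a phosphatase that ends MAP kinase signalling, had 267, 627 and 250.03 in control and 657, 538 and 552 at H3 (0.71, adjusted p = 0.649). Arc, a synaptic early gene, had 89.5, 1074 and 129 in control and 148, 169.5 and 156 at H3. In each of these control array 2 was the highest control, and the groups overlapped. Klf4, a Kruppel-like factor, had 32.3, 56.8 and 42.2 in control and 96.2, 68.0 and 107 at H3 at the called probe set (log2 change 0.84, SE 0.17, adjusted p = 0.0465) and an adjusted p of 0.18 at its representative probe set, and the first call was lost without any 1 of the arrays other than control array 2 and H3 array 2, with adjusted p of 0.123 to 0.233. The part of control array 2 in the immediate early results was not tested.

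Genes of chromatin and transcription were represented by single calls. H3f3b encodes the replacement histone H3.3, and the 1 probe set that names it alone had 23.2, 28.7 and 21.3 on the control arrays and 108, 98.4 and 100.3 on the H3 arrays. All H3 arrays were at 98.4 or more and all control arrays at 28.7 or less (log2 change 1.55, SE 0.15, adjusted p = 5.19e-05), and the call held without any single array. Probe sets that name both H3f3a and H3f3b stand for neither gene here. In the paper's list of forebrain rises, under its own processing, they have far smaller folds at H3 than the probe set of H3f3b alone. Of 9 measured histone H3.3, HMGB and H1 genes no other was called. In the same list Hmgb2, an HMG-box chromatin protein, had 33.3, 25.6 and 36.5 in control and 63.7, 68.8 and 69.5 at H3 (0.81, adjusted p = 0.181), and H3f3a, which encodes the same protein, had 26.6, 31.9 and 32.8 in control and 41.5, 30.5 and 8.91 at H3 (-0.19, adjusted p = 0.946). Polr3e, a subunit of RNA polymerase III, had 91.8, 94.4 and 115 in control and 175, 200.2 and 224 at H3 (log2 change 0.89, SE 0.14, adjusted p = 0.00674) and was the 1 call among 10 subunits. Its call was lost without H3 array 3, with an adjusted p of 0.0507, and its other probe set had 0.34 (adjusted p = 0.651).

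In 3 further named rises the probe sets of a gene disagreed. Ap2a2, a subunit of the clathrin adaptor, rose at 1 probe set from 66.0, 49.9 and 65.6 to 141, 143 and 139 (log2 change 1.04, SE 0.17, adjusted p = 0.00952). That call was lost without control array 2, with an adjusted p of 0.0633. The representative probe set of Ap2a2 had 463, 530.3 and 439.7 in control and 387, 406 and 416 at H3 with a change of -0.23 (adjusted p = 0.597). A dimmer one rose from 21.2, 24.4 and 20.5 to 40.3, 57.7 and 56.2 (0.82, adjusted p = 0.181), and the rest had -0.26 and -0.28. Kdm5c, an oxygen-dependent histone demethylase, rose at 1 dim probe set from 8.20, 17.97 and 7.81 to 45.9, 37.6 and 26.1 (log2 change 0.95, SE 0.19, adjusted p = 0.0415), and its call was lost without any 1 of the arrays other than control array 2 and H3 array 3, with adjusted p of 0.141 to 0.201. Its representative probe set had a change of -0.13, and its others that were not called lay between -0.23 and 0.49. None of the 15 oxygen-dependent histone demethylases was called at the representative probe set (median -0.01). Qk, the quaking RNA-binding protein of myelin and glia, rose at 1 probe set from 151, 159 and 115 to 239.6, 248 and 215 (log2 change 0.68, SE 0.12, adjusted p = 0.0154), and its representative probe set had 1097, 1338 and 1022 in control and 1106, 1285 and 1168 at H3 (0.05). Its other probe sets lay between 0.11 and 0.41, none called. The Qk call was lost without control array 3, H3 array 1 or H3 array 2, with adjusted p of 0.0665 to 0.0833. The names of the called Ap2a2 and Kdm5c probe sets mark them as able to bind RNA of more than 1 gene. The brighter Adm, the brightest Ccn1 and the dimmer Klf6 probe set are marked likewise. So are 2 of the 4 called Nfkbia probe sets and the representative ones of Ap2a2 and Malat1. The same is true of the values given for Pgk1, Ndrg1, Dbp, Hmgb2, Tob2 and Ttr, and of less bright probe sets of Hnrnpdl, Rbmx and Lcor. Other names mark more than 1 transcript of a gene. Among these are the called probe sets of Edn1, Clk1, Ier3, Polr3e, Tia1 and Ccn1 and the brighter one of Depp1.

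Agreement over all called genes was as follows. Of the 28 genes higher, 8 had 1 probe set, 17 were called at the representative one, 11 were called only elsewhere, and 4 of these 11 had a representative change of the opposite sign. Of the 49 genes lower, 14 had 1 probe set, 29 were called at the representative one and 20 only elsewhere, 6 of these with the opposite sign. More than 1 probe set was called for Nfkbia (4) and Txnip (2) among the rises and for Klf6 and Lcor (2 each) among the falls. Beyond the 15 largest rises and 15 largest falls, 13 further genes rose by 0.47 to 0.89 and 34 fell by a log2 change between -0.85 and -0.42. Of these, Errfi1 and 6 falls held without any single array, which besides Klf6 were 2610005L07Rik (-0.85), the ubiquitin ligase Mylip (-0.58), the zinc finger gene Zfp866 (-0.56), the ciliary chaperonin Mkks (-0.48) and Btbd7 (-0.47), chosen after their values were seen. The representative probe set of 2610005L07Rik had a change of 0.14 (adjusted p = 0.859), and its others that were not called lay between -0.03 and 0.43. The other probe sets of Btbd7 lay between -0.16 and 0.42 and that of Mkks had -0.18, none called.

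The region just before the transcription start is shown for the 5 genes with the largest named rises, in that order, because HIF binds the core letters ACGTG or GCGTG and FOXO factors bind GTAAACA. The sequences are the 250 bases before the start in RefSeq's annotation of GRCm38.p6, 5′ to 3′ along the gene, with these letters (either strand) in capitals.
Depp1 (chr6:116650434-116650683, + strand): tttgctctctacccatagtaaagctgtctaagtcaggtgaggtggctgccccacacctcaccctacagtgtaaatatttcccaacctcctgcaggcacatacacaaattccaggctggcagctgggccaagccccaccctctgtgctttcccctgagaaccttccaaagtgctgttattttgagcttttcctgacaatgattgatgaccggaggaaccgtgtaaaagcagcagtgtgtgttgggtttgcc
Edn1 (chr13:42301226-42301475, + strand): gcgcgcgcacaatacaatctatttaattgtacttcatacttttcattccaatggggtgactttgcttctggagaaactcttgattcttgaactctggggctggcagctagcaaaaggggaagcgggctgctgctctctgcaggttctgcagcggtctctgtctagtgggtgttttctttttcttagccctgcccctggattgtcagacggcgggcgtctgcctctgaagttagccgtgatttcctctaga
Ddit4 (chr10:59951771-59952020, - strand): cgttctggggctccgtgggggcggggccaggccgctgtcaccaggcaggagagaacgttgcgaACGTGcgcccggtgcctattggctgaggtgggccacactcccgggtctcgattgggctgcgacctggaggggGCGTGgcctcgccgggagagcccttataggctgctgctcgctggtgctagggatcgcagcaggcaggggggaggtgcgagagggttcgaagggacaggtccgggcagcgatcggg
H3f3b (chr11:116024505-116024754, - strand): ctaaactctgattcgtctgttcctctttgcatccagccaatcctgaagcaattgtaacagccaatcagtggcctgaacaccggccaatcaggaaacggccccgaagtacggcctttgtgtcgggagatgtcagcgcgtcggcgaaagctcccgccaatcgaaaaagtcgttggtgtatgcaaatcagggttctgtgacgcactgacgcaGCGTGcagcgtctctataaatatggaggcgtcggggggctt
Txnip (chr3:96557707-96557956, + strand): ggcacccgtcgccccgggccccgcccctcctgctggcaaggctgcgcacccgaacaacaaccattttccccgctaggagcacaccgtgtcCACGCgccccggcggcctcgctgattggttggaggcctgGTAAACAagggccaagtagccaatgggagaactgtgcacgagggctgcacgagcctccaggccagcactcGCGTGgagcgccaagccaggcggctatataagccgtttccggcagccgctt

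No hypoxia core lay in the 250 bases before the start of Depp1 or Edn1, although Edn1 held one within the 50 bases after it. Ddit4 held the core 187 and 115 bases before its start, H3f3b 41 and Txnip 160 and 51 bases before it, and Txnip also held the forkhead letters 121 bases before it. Of the other vessel genes described above, Adm held the core 90 and 54 and Apold1 163 bases before the start. Vegfa has 2 windows, and the one at its upstream start held no core. The other, at a start further along the gene, held it at 218 and 211 bases. With the 50 bases after the start included, and both strands and overlapping matches counted, 22 of the 27 higher genes matched in RefSeq's table (81.5%) held the hypoxia core in a window, as did 23 of 41 lower genes (56.1%) and 46.7% of all 27025 genes. By windows the shares were 70.3%, 56.2% and 43.8%. The windows of the higher, the lower and all genes differed in median GC content, at 61.0, 60.3 and 52.7%, and the part of base composition in these shares was not tested. GTAAACA was in 1 of 27 higher genes (3.7%), 1 of 41 lower genes (2.44%) and 4.05% of all genes. Such a match describes letters in a window.

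Clk1, Mex3b and Hnrnpdl, which act on RNA, were among the falls that held without any single array. Clk1, a kinase that phosphorylates the SR proteins of the spliceosome, had 211, 213 and 226 on the control arrays and 98.1, 93.5 and 78.3 on the H3 arrays, less than any control by a wide gap (log2 change -1.14, SE 0.14, adjusted p = 0.000736). Mex3b, an RNA-binding ubiquitin ligase, had 145, 142 and 133 in control and 55.5, 57.1 and 53.3 at H3 (log2 change -1.13, SE 0.17, adjusted p = 0.00392), with 3 tight values in each group. Hnrnpdl, a nuclear ribonucleoprotein that regulates its own splicing, had 343, 334 and 373 in control and 151, 174 and 143 at H3 at the called probe set (log2 change -1.09, SE 0.14, adjusted p = 0.000801). Its representative probe set had 1530.3, 1133 and 1330.3 in control and 1457, 1525 and 1469.8 at H3, with a change of 0.17 (adjusted p = 0.811), so the fall belongs to 1 of 7 probe sets by the test. A second one had -0.81 (adjusted p = 0.116).

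In other RNA genes the probe sets differed as well. Tia1, a stress granule protein, had 139, 139 and 94.7 in control and 59.4, 64.7 and 54.8 at H3 at the called probe set (log2 change -0.87, SE 0.18, adjusted p = 0.048), against a change of -0.04 at its representative probe set. Of its other 4 probe sets, 1 had -0.87 (adjusted p = 0.318) and the rest lay between -0.20 and -0.09. The Tia1 call was lost without any 1 of the arrays other than control array 3, with adjusted p of 0.108 to 0.214. Malat1, a nuclear noncoding RNA chosen after its values were seen, had 251, 291 and 233 in control and 116, 128 and 166 at H3 at the called probe set (log2 change -0.85, SE 0.16, adjusted p = 0.028) and a change of 0.08 at its representative probe set, and a further one had 0.68 (adjusted p = 0.419). Its call was lost without any 1 of the arrays other than control array 3 and H3 array 3, with adjusted p of 0.0795 to 0.146. Rbmx, a nuclear RNA-binding protein, had 36.7, 22.6 and 33.3 in control and 15.4, 7.13 and 5.09 at H3 at a dim probe set (-0.90, adjusted p = 0.0319) and -0.03 at its representative one, with -0.54 and -0.39 at its other 2 (adjusted p = 0.42 and 0.614). Its call was lost without any 1 of the arrays other than control array 2 and H3 array 1, with adjusted p of 0.107 to 0.169.

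Of 30 measured splicing regulators, Clk1 alone was called at the representative probe set, with a list median of -0.02, beside 0.253% of all genes called. Srsf5, an SR protein, had 1019, 727 and 833 in control and 1226, 1436 and 1048 at H3 (0.52, adjusted p = 0.511), and the cold-induced RNA-binding protein Cirbp had 309, 273 and 336 in control and 367, 370.1 and 356 at H3 (0.24, adjusted p = 0.81). Rbm5 had -0.35 and Luc7l -0.33. In all 4 the groups did not overlap, without passing the test, and of all probe sets 10.3% did not overlap.

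The next falls are those of Klf6, Tob1 and Id3, which regulate transcription and growth. Klf6, a Kruppel-like factor and early gene, had 249, 258 and 239 in control and 153, 136 and 128 at H3 (log2 change -0.78, SE 0.11, adjusted p = 0.00389), and a further and dimmer probe set had 84.5, 78.4 and 71.5 in control and 40.2, 39.0 and 33.7 at H3 (log2 change -0.81, SE 0.12, adjusted p = 0.00551). Both calls held without any single array, and its other 3 probe sets had changes of -0.47, -0.35 and -0.51. Tob1, an antiproliferative protein that recruits deadenylases, had 352, 373 and 297 in control and 234, 235 and 248 at H3 (log2 change -0.48, SE 0.09, adjusted p = 0.0161). The groups were apart, but the call was lost without any 1 of the arrays other than control array 3 and H3 array 3, with adjusted p of 0.0722 to 0.0941. Id3, an inhibitor of basic helix-loop-helix factors, had 163, 178 and 169.8 in control and 124.8, 112 and 101 at H3 (log2 change -0.54, SE 0.11, adjusted p = 0.0345) and was lost without any 1 of the arrays other than H3 array 1, with adjusted p of 0.0768 to 0.176. Among 11 members of the BTG/TOB, GADD45 and ID families, Id3 and Tob1 were the 2 calls while the list median was 0.21 and 8 members were above 0. Klf6 was likewise the 1 call among 13 Kruppel-like factors, which had a median of 0.08 with 8 above 0. In the former list Gadd45g had 0.53, Id1 0.31 and Tob2 0.30, none called. Over all genes, 0.253% were called in either direction and 47.9% had a change above 0.

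The remaining large falls were mostly dim. Oaz2, an inhibitor of polyamine synthesis, had 34.8, 38.3 and 37.6 in control and 6.28, 3.65 and 7.58 at H3 (log2 change -1.28, SE 0.23, adjusted p = 0.0166), while its representative probe set had 816, 847 and 759 in control and 803, 833 and 819 at H3 (0.02). The dim call was lost without any 1 of the 6 arrays, with adjusted p of 0.0515 to 0.09. Taf5, a subunit of the general factor TFIID, had 42.9, 41.6 and 18.8 in control and 3.76, 3.76 and 6.14 at H3 (log2 change -1.26, SE 0.21, adjusted p = 0.00991), with all H3 arrays below 16, and was lost without control array 1, control array 2 or H3 array 2, with adjusted p of 0.0523 to 0.0649. Taar1, a trace amine receptor, had 42.5, 36.9 and 44.1 in control and 19.2, 8.52 and 9.00 at H3 (-1.04, adjusted p = 0.0111) and was lost without any 1 of the arrays other than control array 2 and H3 array 1, with adjusted p of 0.0554 to 0.0754. Kbtbd8, an adaptor of a ubiquitin ligase, had 69.0, 82.5 and 81.3 in control and 35.4, 31.9 and 28.4 at H3 (log2 change -0.97, SE 0.12, adjusted p = 0.000801), and its call held without any single array.

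The 6 other genes among the 15 largest falls, with control against H3 arrays, follow. Trmt13, a tRNA methyltransferase, had 56.3, 60.4 and 43.9 against 24.3, 17.99 and 13.6 (-1.01, adjusted p = 0.0068) and was lost without H3 array 3, with an adjusted p of 0.0518. Its other probe sets lay between -0.32 and -0.000712, none called. Chd1, a chromatin remodeller, had 47.9, 51.7 and 58.0 against 12.6, 23.1 and 26.2 (-0.92, adjusted p = 0.00633), and the call held. Its representative probe set had -0.51 (adjusted p = 0.254), another -0.10, and a further one moved the other way with 0.68 (adjusted p = 0.384). Cttnbp2, a neuronal cytoskeletal protein, had 123, 147 and 98.8 against 51.4, 56.4 and 55.9 (-0.96, adjusted p = 0.0166) and was lost without any 1 of the arrays other than control array 3, with adjusted p of 0.0631 to 0.0998, and its representative probe set had -0.04. No H3 array reached the control range at the called probe set of any of them. Ccdc58 had 47.3, 39.0 and 34.8 against 15.5, 14.0 and 10.7 (-0.94, adjusted p = 0.00351) and held, with 0.03 at its representative probe set. The zinc finger genes Zfp950 and Zfp418 had 177, 149 and 142 against 63.8, 87.3 and 80.9 (-0.89, adjusted p = 0.00991) and 30.1, 43.3 and 32.6 against 20.03, 12.7 and 4.59 (-0.88, adjusted p = 0.0468). Their calls were lost without control array 1 or H3 array 1, with adjusted p of 0.0605 to 0.0632 and without any 1 of the arrays other than H3 array 1, with adjusted p of 0.08 to 0.239. The other probe sets of Zfp950 had -0.02 and -0.59, neither called.

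Markers of other cell types were set beside these results, since in tissue RNA fewer cells of a type and less RNA per cell cannot be told apart. All 13 measured oligodendrocyte markers had a change above 0, with a median of 0.18, where 47.9% of all genes had a change above 0. Their summed intensity was 9969 to 10964 on the control arrays and 10914 to 12159 on the H3 arrays. Opalin, a myelin membrane protein, was the 1 call, with 167, 115 and 119.5 in control and 215, 241 and 205 at H3 (log2 change 0.67, SE 0.12, adjusted p = 0.0176). It was lost without any 1 of the arrays other than control array 1 and H3 array 3, with adjusted p of 0.0547 to 0.107. The dimmer probe set of Opalin went the other way, with 24.3, 17.2 and 30.9 in control and 5.47, 15.9 and 27.0 at H3 (-0.36, adjusted p = 0.91). Gpr37 and Mag had 0.37 and 0.29 (adjusted p = 0.167 and 0.514). Qk was higher at its called probe set, and the part of oligodendrocyte RNA in its result was not tested. Astrocyte markers summed to 10012 to 10171 and 10335 to 10669, microglia markers to 2852 to 2921 and 2796 to 3340.0, and none of their 11 and 10 measured members was called. The sums of astrocyte and of oligodendrocyte precursor markers, the latter 1219 to 1327 in control and 1350.2 to 1478 at H3, did not overlap between the groups. Of single probe sets, 10.3% did not overlap. No member was called among 9 interneuron, 5 precursor, 8 pericyte and smooth muscle, 8 meningeal fibroblast and 2 red cell markers.

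All 8 measured choroid plexus markers had a change below 0, with a median of -0.27 and none called, where 47.9% of all genes had a change above 0. Ttr, the thyroxine carrier that marks this tissue, had 2874, 377 and 1646 on the control arrays and 1037, 528 and 141 on the H3 arrays (-1.46, adjusted p = 0.876), so it was highest in control array 1 and lowest in H3 array 3 and the groups overlapped. The list summed to 627 to 3237 in control and 376 to 1319 at H3, and Otx2 was below 16 on all 6 arrays. The part of choroid plexus RNA in the changes was not tested. Markers of the neighbouring striatum, hippocampus and thalamus were not called in any of 6, 5 and 6 genes, with Dsp below 16 on all 6 arrays and medians of -0.03, -0.02 and 0.02.

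No member was called in the lists of heat shock proteins (20 measured), unfolded protein response (21), circadian clock (17), Notch pathway (15), p53 targets (15), NRF2 targets (14), glutamate receptors (17), GABA receptors (10), voltage-gated potassium channels (16), adenosine handling (10), autophagy (19) or monoamine, peptide and neurotrophin genes (16). Their medians lay between -0.10 (Notch pathway) and 0.13 (p53 targets). Some members had separate groups without passing the test, and 10.3% of all probe sets had separate groups. Ppp1r15a, which restarts translation after stress, had 97.6, 69.9 and 56.5 in control and 119, 122 and 171 at H3 (0.77, adjusted p = 0.0905), and Hes1, a Notch target, had 102, 113 and 106 in control and 138, 197 and 148 at H3 (0.51, adjusted p = 0.328). The clock genes Per2, Dbp and Ciart, which follow the hour of day, had changes of -0.58, -0.44 and 0.54 with overlapping arrays. Over the 590 list genes measured, 13 were called higher and 4 lower at the representative probe set.

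The times around H3 show how far these levels lasted. Against H1, 2 probe sets (0.00444%) were called at H3, both lower. Klf6 at its dimmer called probe set had a mean of 86.9 at H1 and 37.7 at H3 (log2 change -0.94, adjusted p = 0.00932), and Tob1 had 388 and 239 (-0.67, adjusted p = 0.00932). For comparison, the control means were 78.2 and 341. None of the 44 rises was called between H1 and H3. Depp1 had means of 19.7 in control, 211 at H1 and 259.7 at H3, H3f3b 24.4, 71.5 and 102, and Ddit4 271, 519 and 907.

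Room air for 1 hour after H3 gave 9 calls between R1 and H3 (0.02%), 4 of them without a gene symbol. Depp1 was lower at R1 by a log2 change of -2.33 (SE 0.30, adjusted p = 0.00386), with a mean of 41.8 (17.7 to 57.6) over its 3 arrays. H3f3b was lower by -1.26 (adjusted p = 0.00219), with 33.6 (27.5 to 42.0), and Qk by -0.82 (adjusted p = 0.0146), with 126 (112 to 139). Tob1 was higher at R1 by 0.54 (adjusted p = 0.0253), with 354 (346 to 371). Optc, an extracellular matrix proteoglycan, was higher by 0.64 (adjusted p = 0.0327), but its means of 3.79 at H3 and 14.9 at R1 are below 16. Leaving out replicate 1, 2 or 3 from every group left 0, 0 and 1 calls, and 0 of those between H3 and H1 in each case. The comparisons of H3 with control and of R1 with H3 share the H3 arrays. A level that is high on those arrays raises the change from control to H3 and lowers the change from H3 to R1.

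Levels at the later times are given as group means. Ddit4 had 629 at R1, 255 at R3, 448 at R6, 247 at R12 and 211 at R24. Klf6 at its brighter probe set had 147 at R1 and 259 at R3, against 249 in control, so it was still near its H3 mean of 139 after 1 hour of room air. Depp1 had group means between 16.9 and 47.9 from R1 to R24. No test was made between these later times.

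**Figure D4:**
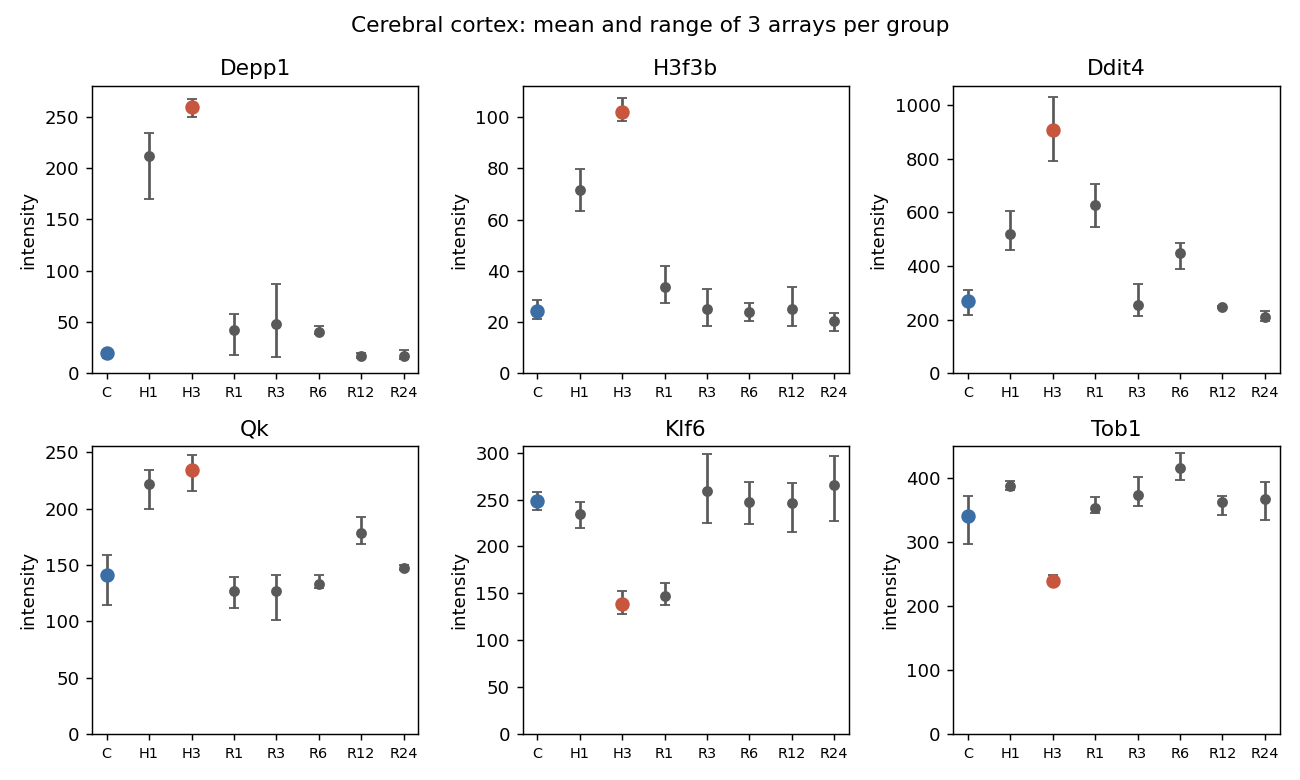
Signal intensity (mean of 3 arrays as a point, lowest to highest array as a bar) in the 8 groups of cerebral cortex, from control (C) through 1 and 3 h of hypoxia (H1, H3) to 1 to 24 h of room air (R1 to R24), for 6 genes. Control is blue and H3 red, and Depp1, H3f3b and Qk are lower at R1 than at H3 while Tob1 is higher.

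The same change was compared with that of the other 6 regions of the study, each against its own control arrays. No probe set (0%) differed between cortex and the mean of the other regions at an adjusted p under 0.05 in limma with a random block for the mouse, on the assumption that equal replicate numbers in different regions are 1 mouse, and 2093 had an unadjusted p under 0.05. The 3 smallest adjusted p values were all 0.0562. Egr1, an early gene of neuronal activity, had 2316, 3085 and 1912 in the cortex of control mice and 2896, 2434 and 2436 at H3, where the difference of its log2 change from the mean of the other regions was -0.83. In striatum its groups overlapped too, with 1820, 2225 and 2852 in control and 2511, 2014 and 2484 at H3. In the remaining regions every H3 array was above every control array, as in thalamus with 475, 418 and 438 in control and 1294, 1036 and 1251 at H3. Otud3, a deubiquitinase, differed by 0.47 and Fam83g by -0.31. The next named genes were G630016G05Rik (-0.71, adjusted p = 0.207) and Ripor2 (-0.76, adjusted p = 0.339).

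Against hippocampus alone no probe set (0%) was called, with 1750 at an unadjusted p under 0.05. Against striatum alone 1 was called (0.00222%), the dim G630016G05Rik, with 12.9, 9.15 and 13.9 in control cortex and 3.34, 3.31 and 0.826 at H3, and 24.0, 20.1 and 24.5 in control striatum and 34.4, 43.4 and 46.4 at H3. The difference of the log2 changes was -1.16 (adjusted p = 0.00875), and the call was lost without replicate 2 (adjusted p = 0.0646) and without replicate 3 (0.546). All cortex values of this transcript are below 16.

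The named cortex calls can be set beside the other regions. Depp1 had a change of 2.96 in cortex and 2.64 to 3.12 elsewhere, with a difference from their mean of 0.11 (SE 0.37, adjusted p = 1.00). Ddit4 had 1.69 and 1.25 to 1.64, with a difference from their mean of 0.19 (SE 0.15, adjusted p = 1.00). Edn1 had its highest change in cortex, 1.97 against 0.72 to 1.78, with a difference from their mean of 0.65 (SE 0.33, adjusted p = 1.00). The dim fall of Oaz2 was -1.28 in cortex and -0.43 to 0.39 elsewhere, with a difference from their mean of -1.15 (SE 0.30, adjusted p = 0.525). Kdm5c had 0.95 and 0.08 to 0.59, and Taar1 -1.04 and -0.61 to 0.24, with adjusted p values of 1.00 and 0.921 for the difference. A p above the threshold does not show that the regions changed alike.

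**Figure D5:**
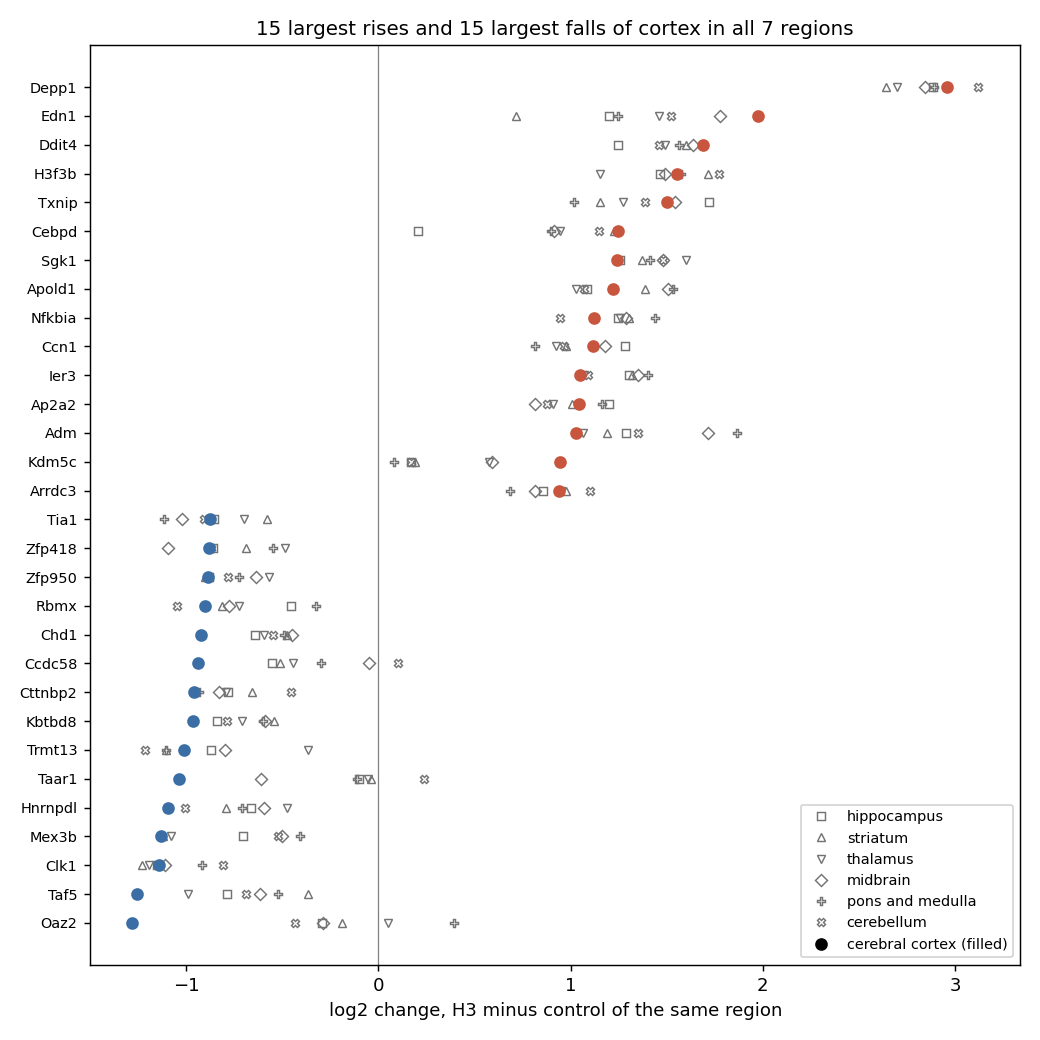
Log2 change at H3 minus the control of the same region for the 15 largest rises and 15 largest falls of cortex, with cortex filled and the other 6 regions as open symbols. Depp1, Ddit4 and Sgk1 lie close together in the 7 regions, while Oaz2 and Taar1 are lower in cortex than in any other region.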

How the data were processed

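Affymetrix Mouse Genome 430 2.0 arrays were read from a table of the whole series that the authors deposited, which holds signal intensity per probe set on a linear scale with a trimmed mean near one value on each array. Per the labels' processing notes the software was GCOS 1.3, while the study's methods name GCRMA, quantile normalization and a final scaling to the mean of the sham arrays. The deposited linear intensity values do not show those last steps, and background correction beyond that is not given in the sources used here. Probe sets were named through the platform annotation, in which 34945 carried 1 gene symbol, 932 several and 9160 none, and 64 array controls were left out.

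Values were tested as log2(deposited intensity + 16) in R 4.3.3 with limma 3.58.1. The 24 cortex arrays in 8 groups of 3 were fitted together, H3 was compared with control, H1 and R1, and p-values were adjusted by the Benjamini-Hochberg method over 45037 probe sets at 0.05. Region differences were fitted over the arrays of all 7 regions with the mouse as a random block (consensus correlation 0.0369), assuming that equal replicate numbers in different regions are the same mouse, which the labels do not state. The p-values measure the spread between 3 mice per group, and the number of arrays limits the precision. Scripts were tested on simulated data. Genes named are the 15 largest rises and 15 largest falls, members of the gene lists, the genes with the largest tested region differences, and genes called between H3 and H1 or R1. The members and the lists were chosen with earlier results of these data known. The lists held 590 measured genes, and 44 entries had no probe set of their own. The lists were HIF, FOXO and glucocorticoid targets, immediate early genes, vasoactive signalling, alpha-arrestins, mTOR brakes, glycolysis, respiratory chain, cholesterol synthesis, stress, clock, signalling, chromatin, splicing and neurotransmission genes, and cell type markers. Promoter sequences came from RefSeq's table for GRCm38.p6. Alternatives were other offsets, filters on dim probe sets, quantile normalization, median centring, array weights, other variance settings, fewer arrays, the replicate block and the methods' t-test.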

Additional observations from a re-analysis of the deposited data

Results flagged for a closer look

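G630016G05Rik was the 1 transcript whose H3 change in cortex differed from that of striatum in a direct test of the difference, by -1.156 on the log2 scale (limma, adjusted p = 0.00875). Without the mouse block the adjusted p was 0.0127, with an offset of 1 it was 0.0898, with an offset of 32 it was 0.00196, and with median-centred arrays it was 0.00567. Leaving out replicate 1, 2 or 3 gave 0.029, 0.0646 and 0.546. All 6 cortex arrays lay below 16, while the 6 striatum arrays lay between 20.1 and 46.4.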

How the results depend on the processing

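The number of calls was sensitive to the samples. No called change altered its sign under any alternative. A change of sign was not possible with fewer arrays, another offset or the methods' t-test, since control and H3 arrays overlapped at no call. Against 44 higher and 61 lower calls, the 6 arrays alone gave 3 and 0. Leaving out 1 replicate number in all 8 groups gave 0 to 8 higher and 0 to 7 lower calls, and leaving out single arrays gave 22 to 39 higher and 27 to 50 lower calls, of which control arrays 1 and 2 gave the fewest lower ones and H3 array 3 the fewest higher ones. In total 50 to 60 of the 105 calls were also made in each single-array repeat. Median-centred arrays gave 30 higher and 24 lower calls, and all 54 were among the 105. An offset of 1 gave 82 calls (78 of the 105), an offset of 32 gave 104 (98), quantile normalization 89 (86), trend and robust settings 98 (87) and array weights 76 (75). Leaving out the dimmer probe sets gave 114 calls and leaving out those with a mean under 16, a setting chosen after seeing the data, gave 114. The methods' t-test after Benjamini-Hochberg adjustment gave 0 higher and 1 lower call, with 2345 probe sets at an unadjusted p under 0.05. After their one-way analysis over the 8 groups, which passed 361 probe sets, it left 205, and 80 of these changed at least 1.5-fold. The cause of these differences was not tested. The calls between H3 and H1 fell from 2 to 0 without any replicate number, and those between R1 and H3 from 9 to 0 to 1. The count of cortex against the mean of the other regions was 0 to 2 and against striatum 0 to 6 when a replicate number was left out, against hippocampus 0 to 1, and with an offset of 1 against hippocampus 2.

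With the replicate block, 49 transcripts were higher and 76 lower at H3, including 97 of the 105, and 9 were called between H3 and H1. Controls and H3 arrays with the same number deviated together with correlations of 0.0872, 0.187 and 0.11 over probe sets, and each control array correlated best with the H3 array of its own number. The arrays share only a number, and the block moved no other count of calls by more than 1.5 times. The depth of the arrays limits dim transcripts, since 24.4 to 27.7% of values were below 16.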
